A study of Homo sapiens with 14 samples.

Results

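Autophagy delivers portions of cytoplasm, damaged organelles and protein aggregates to the lysosome for breakdown. Expression of 37 autophagy and lysosome genes was examined in SCC23 cells, an established head and neck squamous cell carcinoma (HNSCC) line, with and without the histone methyltransferase KMT2D and with and without glucose. The 37 genes were taken by name from a list written for this pathway, and all 37 had a row among the 59471 gene names of the count tables. They comprised 3 transcription factors of the MiT/TFE family, 5 subunits of the initiation kinase complex, 5 subunits of the class III PI3-kinase complexes, 4 genes of phagophore lipid transfer and PI3P binding, 6 of the conjugation machinery, 4 ATG8 proteins, 4 selective autophagy receptors, 3 lysosomal membrane proteins and 3 cathepsins.

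The steps of the pathway run in a fixed order. The ULK kinase complex starts the process, the class III PI3-kinase marks a membrane with PI3P, lipid transfer proteins expand it into a phagophore, and a conjugation system attaches ATG8 proteins to it. Receptors such as p62 (SQSTM1) bind both cargo and ATG8 proteins, and the closed vesicle fuses with a lysosome, whose membrane carries LAMP proteins and whose lumen holds cathepsins. TFEB, TFE3 and MITF are transcription factors that bind CACGTG-containing sequences in lysosomal gene promoters, and they are controlled in large part by where in the cell they are kept, which RNA counts do not measure.

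The study profiled polyadenylated RNA from 14 libraries in 4 groups. KMT2D-WT cells, transfected with Cas9 and an sgRNA against LacZ, gave 3 libraries kept in high glucose (+Glc) and 3 deprived of glucose for 6 h (-Glc). KMT2D-KO cells, transfected with Cas9 and an sgRNA against KMT2D, gave 4 libraries in each condition, from the lines KO1 and KO2. All cells had been transfected and sorted for the GFP of the Cas9 plasmid, and the methods describe no isolation of single cells. Experiment 1 held 1 WT, 1 KO1 and 1 KO2 library per condition, and experiment 2 held 2 WT, 1 KO1 and 1 KO2 library per condition. The labels do not say whether libraries of 1 line and experiment came from separate cultures, so p-values measure the spread between these libraries, which may be technical.

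Some properties of the libraries touch every result. Total counts ranged from 15669154 to 62968057. In 4 libraries, those of experiment 2 with glucose, the counts include each end of a read pair, and the other 10 were single-end. In experiment 2 glucose and library type therefore cannot be told apart, while in experiment 1 both conditions were single-end. In experiment 2, the WT pair and the KO pair of -Glc libraries were nearly alike, with a chi-square per gene of 1.71 and 1.78, against 25.9 to 83 for the other pairs of libraries from 1 group and experiment. They differed by more than sampling noise but by less than these other pairs, so results are also given with each close pair summed to 1 library. The other pairs joined the lines KO1 and KO2, or were WT libraries whose counts include each end of a read pair. They are therefore not a like-for-like standard for replicates. At 8 genes that separated line KO1 from line KO2 by at least 8-fold in the other libraries, both -Glc KO libraries of experiment 2 lay nearer to KO2 at 8 of 8, so the library labelled KO1 there is in doubt. If it is of line KO2, that line outweighs KO1 in the -Glc KO group but not in the +Glc KO group. For genes that differ between the lines, the KO deprivation response and the difference of responses then mix line with glucose. The knockout effect without glucose then rests more on KO2 than on KO1. KMT2D itself was counted at 266 to 279 CPM in WT and 182 to 373 CPM in KO cells with glucose, and at 231 to 239 CPM in WT and 19.9 to 190 CPM in KO cells without it. A small CRISPR edit does not have to lower a transcript's count, so these counts do not check the genotype. TXNIP, a gene that depends on glucose, fell from between 119 and 137 CPM to between 5.15 and 6.27 CPM in WT cells and from between 44.9 and 67.5 CPM to between 3.20 and 9.72 CPM in KO cells. Of 8 squamous epithelial markers, 7 had a group mean over 1 CPM in every group, with KRT6A at or under 1.13 CPM in all libraries. Of 11 markers of blood, endothelial, fibroblast and melanocytic cells, 2 to 4 had a group mean over 1 CPM. COL1A1 was at 3.03 to 6.92 CPM in WT and 7.20 to 16.0 CPM in KO cells, and ACTA2 at 3.99 to 11.9 CPM over all libraries. COL3A1 was at 5.26 and 3.23 CPM in the KO +Glc libraries of experiment 2 and at or under 0.207 CPM elsewhere. The blood cell markers PTPRC, CD3E and CD68 were at or under 0.290 CPM.

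Levels are given as CPM, the share of a library's reads that fall on a gene on a fixed common scale, after TMM scaling over all 14 libraries. CPM does not divide by gene length. WT values are listed with experiment 1 first and KO values with KO1 and KO2 of experiment 1 first, then the libraries labelled KO1 and KO2 of experiment 2. Differences are log2 fold changes with their standard errors (SE) from edgeR's quasi-likelihood test with experiment as a covariate, and a gene was called when its Benjamini-Hochberg adjusted p over all genes tested was under 0.05. In a culture, less RNA per cell and fewer cells that carry it cannot be told apart.

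The 37 genes spanned a wide range of levels. On the CPM per kilobase scale, which divides by exonic length, the mean level of the lysosomal membrane protein LAMP1 was the highest of the 37 in each of the 4 groups, at 58.2 in WT and 65.3 in KO cells with glucose and at 65.0 in WT and 97.9 in KO cells without it. SQSTM1 ranked next in every group, at 36.1, 45.5, 49.4 and 66.6 CPM per kilobase in the same order, and TFE3 followed at 32.0, 36.4, 32.9 and 46.3 CPM per kilobase. TFEB and GABARAP held the lowest ranks, with TFEB at 0.160 to 0.295 CPM per kilobase and GABARAP at 0.180 to 0.353 CPM per kilobase over the group means. For GABARAP, an ATG8 protein, 48.2% of the exonic bases lie in another gene as well, mainly AC120057.2 on the same strand. The part of this overlap in its low count was not tested.

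Glucose deprivation raised part of the pathway in KMT2D-KO cells. Of the 37 genes, 11 rose and 1 fell, or 29.7% and 2.70%, against 14% of all 16057 genes tested that rose and 16.0% that fell. The median log2 fold change of the 37 was 0.27, against 0.00 for all genes, and 28 of 37 values were positive, against 50.4% of all genes. The genes that rose included all 4 selective autophagy receptors, 2 of 4 ATG8 proteins (GABARAPL1 and MAP1LC3B), the PI3-kinase subunits ATG14 and UVRAG, the lysosomal membrane protein LAMP1, the aspartic protease CTSD and the kinase complex scaffold ATG13. PIK3R4, the regulatory subunit VPS15 of the class III PI3-kinase, was the gene that fell. None of the 6 conjugation genes, the 4 lipid transfer and PI3P-binding genes or the 3 transcription factors passed the test.

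In KMT2D-WT cells, with fewer libraries than in KO cells, fewer of the 37 genes and a smaller share of all genes passed the test. GABARAP was left out by the filter on low counts, and of the other 36 genes 5 rose (GABARAPL1, SQSTM1, ATG14, CTSD and OPTN) and 1 fell (ATG9A), or 13.9% and 2.78%, against 7.15% of all 17227 genes tested that rose and 7.58% that fell. The median was 0.02, against 0.01 for all genes. The 5 genes that rose in WT cells also rose in KO cells, and the share of such an overlap over all genes was not computed. Each of the 6 calls in WT cells was lost when any 1 of the 4 experiment 2 WT libraries was left out, with adjusted p between 0.0632 and 0.195 and no change of sign. With libraries paired by label within experiment as a block, 0 of the 36 genes passed and 9 had an unadjusted p under 0.05. With the close pair summed, 0 passed and 7 had an unadjusted p under 0.05, and DESeq2 with the design of the test called 11.

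**Figure D1:**
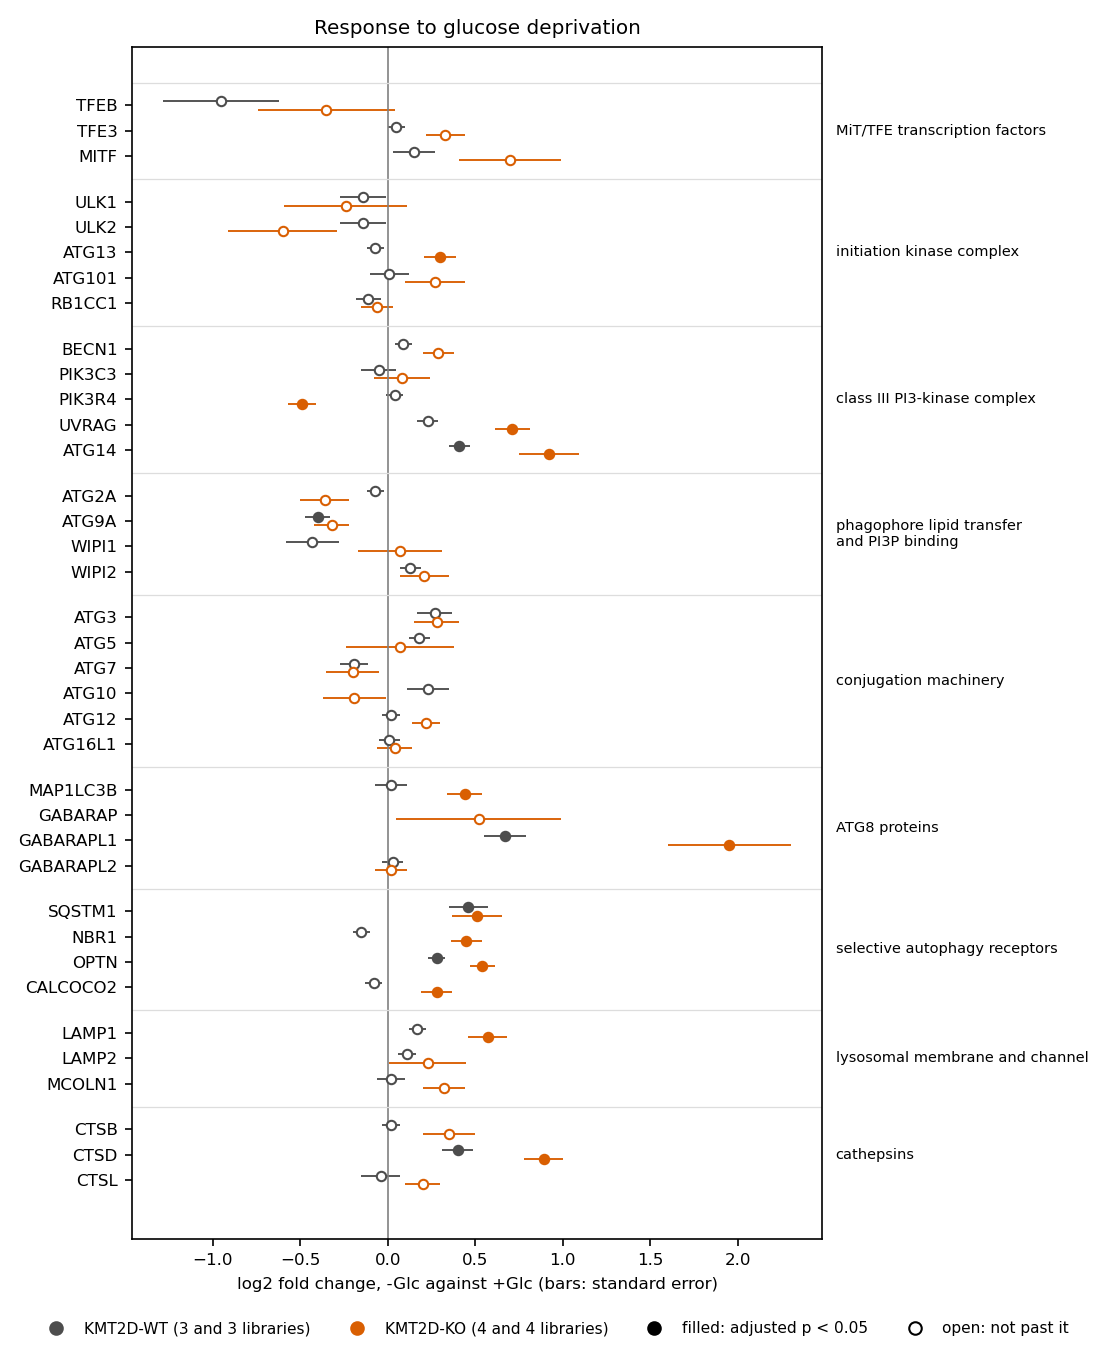
The horizontal axis gives the log2 fold change of glucose-deprived against glucose-fed libraries with its standard error for each of the 37 genes, grouped by role, in grey for KMT2D-WT and orange for KMT2D-KO cells, with filled points for adjusted p under 0.05. GABARAPL1 lies farthest to the right in both genotypes, at 0.67 in WT and 1.95 in KO cells, and GABARAP has no WT value because it did not pass the filter on low counts.

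GABARAPL1, an ATG8 protein that is lipidated and held on the phagophore, showed the highest log2 fold change of the 37 genes in both genotypes. Its level was 20.5, 15.0 and 13.2 CPM in WT cells with glucose and 27.4, 26.1 and 22.4 CPM without it. Levels in KO cells were 23.5, 33.3, 20.9 and 35.9 CPM with glucose and 50.3, 159, 119 and 120 CPM without it. The -Glc libraries lay above all +Glc libraries in both genotypes, and the KO1 library of experiment 1 was the lowest of the 4 KO libraries without glucose. By edgeR the log2 fold change was 0.67 (SE 0.12, adjusted p = 0.0297) in WT cells and 1.95 (SE 0.35, adjusted p = 0.00780) in KO cells by edgeR. By experiment it was 0.42 and 0.78 in WT cells and 1.88 and 2.07 in KO cells. In experiment 1, the ratio of the -Glc to the +Glc library was 1.34 in WT, 2.14 in KO1 and 4.77 in KO2. The difference between the 2 responses was 1.35 (SE 0.44), which did not pass the test, with an adjusted p of 0.0675.

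GABARAPL1 closely resembles the copy GABARAPL3, and reads could be split between them. GABARAPL3 was counted at 0 to 0.211 CPM with glucose, at 0.181 to 0.846 CPM in WT cells without it and at 1.07 to 3.51 CPM in KO cells without it. Of the exonic bases of GABARAPL1, 8.12% also lie in an antisense gene, and reads of the pair cannot be told apart without strand.

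MAP1LC3B, which encodes LC3B, the ATG8 protein most used as a marker of autophagosomes, rose in KO cells, while its WT value did not pass the test. In WT cells its level was 55.6, 67.6 and 63.6 CPM with glucose and 66.1, 62.2 and 60.0 CPM without it, and the ranges overlapped. The KO libraries were at 55.0, 58.2, 74.3 and 72.8 CPM with glucose and 78.4, 96.5, 90.4 and 90.2 CPM without it, so that all 4 deprived libraries were above all 4 fed ones. Its log2 fold change was 0.02 (SE 0.09) in WT cells and 0.44 (SE 0.10, adjusted p = 0.0176) in KO cells. Without the KO1 +Glc library of experiment 1 the KO value was 0.39 with an adjusted p of 0.0550. The difference of the responses was 0.39 (adjusted p = 0.0599 by edgeR).
The other 2 ATG8 genes did not pass in either genotype, with log2 fold changes in KO cells of 0.02 for GABARAPL2 and 0.52 (SE 0.47) for GABARAP.

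**Figure D2:**
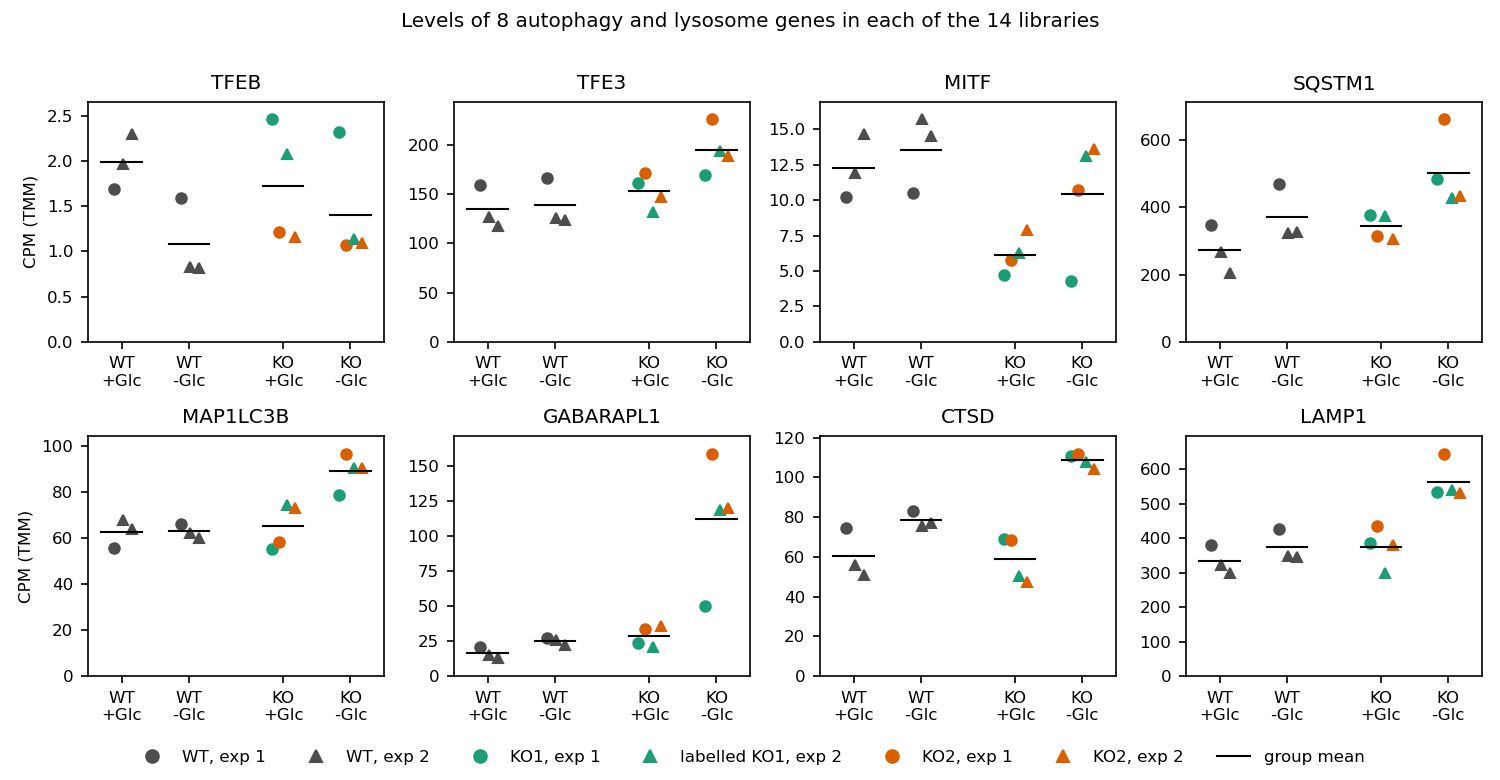
Each panel gives the TMM-scaled CPM of 1 gene in all 14 libraries on a linear axis from 0, with circles for experiment 1, triangles for experiment 2, colours for the line given by the label and black bars for group means. CTSD and LAMP1 show 4 glucose-deprived KO libraries above all other libraries, GABARAPL1 shows a wide spread among them, and TFEB stays under 3 CPM.

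All 4 selective autophagy receptors rose in KO cells, and in WT cells SQSTM1 and OPTN rose while NBR1 and CALCOCO2 did not pass the test. SQSTM1, the p62 receptor for ubiquitinated cargo, was at 346, 267 and 204 CPM in WT cells with glucose and at 470, 322 and 325 CPM without it. In KO cells it was at 378, 315, 373 and 305 CPM with glucose and at 485, 661, 428 and 433 CPM without it. The WT ranges overlapped across experiments and the KO ranges did not. The log2 fold change was 0.46 (SE 0.11, adjusted p = 0.0467) in WT and 0.51 (SE 0.14, adjusted p = 0.0323) in KO cells, and their difference was 0.05 (SE 0.20). In KO cells the call was lost with adjusted p of 0.0631 to 0.0925 and log2 fold changes of 0.43 to 0.58 when any of 5 libraries was left out (the KO1 or KO2 +Glc library of experiment 1, the KO2 +Glc library of experiment 2, or either -Glc library of experiment 2), and with pairs as a block (adjusted p = 0.0680). Of the exonic bases of SQSTM1, 22.4% also lie in other genes, mainly MRNIP on the opposite strand.

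NBR1, another receptor for ubiquitinated cargo, differed in its response between the genotypes. In WT cells it was at 71.0, 97.5 and 91.9 CPM with glucose and at 67.6, 82.3 and 82.3 CPM without it. Levels in KO cells were 59.4, 54.4, 73.3 and 69.4 CPM with glucose and 72.5, 87.6, 95.9 and 100 CPM without it. Within each experiment the deprived KO libraries were above the fed ones, and the deprived WT libraries were below the fed ones. By edgeR the log2 fold change was 0.45 (SE 0.09, adjusted p = 0.00994) in KO cells and -0.15 (SE 0.05, adjusted p = 0.101) in WT cells. Their difference was 0.62 (SE 0.12, adjusted p = 0.00699 by edgeR), and it was called in each of the 14 fits that left out 1 library. With the close pairs summed the difference was 0.63 with an adjusted p of 0.0785.
OPTN, which links damaged mitochondria and bacteria to the phagophore, rose by a log2 fold change of 0.28 in WT and 0.54 in KO cells. CALCOCO2, the receptor NDP52, rose by 0.28 in KO cells (adjusted p = 0.0457), a call that was lost without any 1 of 5 libraries, with log2 fold changes of 0.23 to 0.32 and adjusted p of 0.0911 to 0.136. The libraries were the 5 named for SQSTM1.

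Among the subunits of the class III PI3-kinase complexes, the alternative partners of BECN1 rose while the regulatory subunit PIK3R4 fell in KO cells. ATG14 directs the kinase to autophagosome formation, and its level was 21.3, 36.4 and 37.4 CPM in WT cells with glucose and 30.5, 46.8 and 46.8 CPM without it. The KO libraries were at 15.7, 14.6, 27.1 and 28.4 CPM with glucose and 20.3, 34.7, 55.9 and 56.7 CPM without it. Experiment 2 was higher than experiment 1 in every group, so the pooled ranges overlapped, while within each experiment all deprived libraries were above the fed ones. Its log2 fold change was 0.41 (SE 0.06, adjusted p = 0.0242) in WT and 0.92 (SE 0.17, adjusted p = 0.00783) in KO cells, and the difference of 0.54 (SE 0.21) did not pass (adjusted p = 0.113 by edgeR).

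UVRAG, which takes the kinase complex to endosomes and vesicle maturation, was at 23.7, 30.4 and 29.0 CPM in WT cells with glucose and at 28.6, 33.3 and 34.7 CPM without it. In KO cells it was at 25.4, 26.9, 34.1 and 34.4 CPM with glucose and at 38.0, 49.0, 56.2 and 58.0 CPM without it. All deprived KO libraries were above all fed KO libraries. The log2 fold change was 0.71 (SE 0.10, adjusted p = 0.00388) in KO cells and 0.23 (SE 0.06, adjusted p = 0.0618) in WT cells. The difference was 0.51 (SE 0.13, adjusted p = 0.0288 by edgeR). It was not called in 9 of 14 fits that left out 1 library, those without any of the 6 WT libraries, the -Glc KO libraries of experiment 2 or the experiment 2 +Glc library labelled KO1, with values of 0.48 to 0.57 and adjusted p of 0.0505 to 0.103.

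PIK3R4 was at 46.7, 61.1 and 56.5 CPM in WT cells with glucose and at 46.3, 61.4 and 60.0 CPM without it. Levels in KO cells were 47.1, 47.4, 66.0 and 68.0 CPM with glucose and 31.2, 35.9, 49.1 and 50.2 CPM without it. The WT ranges overlapped, and within each experiment both deprived KO libraries were below both fed ones. By edgeR the log2 fold change was -0.49 (SE 0.08, adjusted p = 0.00649) in KO cells and 0.04 (SE 0.05) in WT cells, with a difference of -0.48 (SE 0.12, adjusted p = 0.0223). This difference was not called without any of the 5 WT libraries other than the +Glc library of experiment 1, nor without the -Glc library labelled KO1 of experiment 2, with values of -0.50 to -0.40 and adjusted p of 0.0508 to 0.114. BECN1, the scaffold of both complexes, and PIK3C3, the catalytic subunit VPS34, did not pass in either genotype, with KO values of 0.29 (adjusted p = 0.0532) and 0.08.

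CTSD, a lysosomal aspartic protease, was called higher after deprivation in both genotypes, with a larger response in KO cells. Its level was 74.6, 56.0 and 51.1 CPM in WT cells with glucose and 82.9, 75.3 and 77.1 CPM without it. The KO libraries were at 69.2, 68.3, 50.3 and 47.3 CPM with glucose and 111, 112, 108 and 104 CPM without it. Deprived libraries did not overlap with fed ones in either genotype. Its log2 fold change was 0.40 (SE 0.09, adjusted p = 0.0417) in WT and 0.89 (SE 0.11, adjusted p = 0.00222) in KO cells. The WT value was 0.15 in experiment 1 and 0.51 in experiment 2, where library type differs with glucose. By edgeR the WT call was lost with pairs as a block (adjusted p = 0.103) and with the close pair summed (adjusted p = 0.205). It was also lost without any 1 of the experiment 2 WT libraries. The difference of the responses was 0.59 (SE 0.10, adjusted p = 0.00432), 0.55 in experiment 1 and 0.61 in experiment 2, and it was called in each of the 14 fits that left out 1 library. With the close pairs summed it was 0.58 with an adjusted p of 0.0683. Of the exonic bases of CTSD, 48% also lie in other genes, mainly AC068580.4 on the same strand, and how reads there were assigned was not tested.

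LAMP1, the most abundant membrane glycoprotein of the lysosome, was at 379, 323 and 300 CPM in WT cells with glucose and at 425, 348 and 346 CPM without it. In KO cells it was at 385, 435, 300 and 380 CPM with glucose and at 533, 645, 538 and 532 CPM without it. All deprived KO libraries exceeded all fed ones, and the WT ranges overlapped. The log2 fold change was 0.57 (SE 0.11, adjusted p = 0.00970) in KO cells and 0.17 (SE 0.05, adjusted p = 0.0814) in WT cells, and the difference of 0.44 (SE 0.14) had an adjusted p of 0.0562. The other lysosomal genes of the list did not pass in either deprivation comparison. Their log2 fold changes in KO cells were 0.23 for LAMP2, 0.32 for the calcium channel MCOLN1, 0.35 for the cysteine protease CTSB and 0.20 for the cysteine protease CTSL.

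Of the transcription factors, none passed the test in either deprivation comparison. TFEB had the lowest level of the 3, at 1.69, 1.97 and 2.30 CPM in WT cells with glucose and at 1.59, 0.829 and 0.811 CPM without it. Levels in KO cells were 2.46, 1.21, 2.08 and 1.16 CPM with glucose and 2.32, 1.07, 1.14 and 1.09 CPM without it. The deprived WT libraries were all below the fed ones, with a log2 fold change of -0.95 (SE 0.33, adjusted p = 0.0993), of which experiment 1 gave -0.09 and experiment 2 gave -1.37. In KO cells of experiment 1, KO1 was above KO2 in both conditions, and the deprivation response of -0.35 (SE 0.39) did not pass the test.

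TFE3 was at 159, 127 and 118 CPM in WT cells with glucose and at 166, 126 and 124 CPM without it. The KO libraries were at 161, 172, 132 and 147 CPM with glucose and at 170, 226, 194 and 189 CPM without it. The WT levels overlapped, and in KO cells only the KO1 library of experiment 1 fell within the range of the fed libraries. By edgeR the log2 fold change in KO cells was 0.33 (SE 0.11, adjusted p = 0.0578).
MITF was at 10.2, 11.9 and 14.7 CPM in WT cells with glucose and at 10.5, 15.7 and 14.5 CPM without it. In KO cells it was at 4.73, 5.76, 6.25 and 7.90 CPM with glucose and at 4.26, 10.7, 13.1 and 13.6 CPM without it. With glucose all KO libraries were below all WT libraries, and after deprivation all KO libraries but KO1 of experiment 1 were above the fed KO range. The deprivation response in KO cells was 0.70 (SE 0.29, adjusted p = 0.100 by edgeR).

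The 2 experiments gave responses of the same sign for 31 of the 37 genes in KO cells and 24 of 37 in WT cells, against 75.3% and 65.3% of all genes tested. The median response of the 37 genes was 0.25 in experiment 1 and 0.26 in experiment 2 in KO cells, and 0.05 and 0.03 in WT cells. Within experiment 1, where each line had 1 library per condition, the median log2 ratio of -Glc to +Glc was 0.05 in WT, 0.21 in KO1 and 0.36 in KO2. ULK1, the kinase that starts autophagy, went from 14.8 to 6.39 CPM in KO1 and from 14.7 to 23.6 CPM in KO2 in experiment 1, with no replicate of either line there. In experiment 2 it went from 18.4 to 14.1 CPM in the libraries labelled KO1 and from 18.5 to 12.8 CPM in KO2, so KO2 was higher without glucose in one experiment and lower in the other. Each line alone, with 1 library per condition and experiment, gave 0 calls in the KO deprivation comparison by edgeR, with 5 genes at an unadjusted p under 0.05 in the line labelled KO1 and 16 in KO2.

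**Figure D3:**
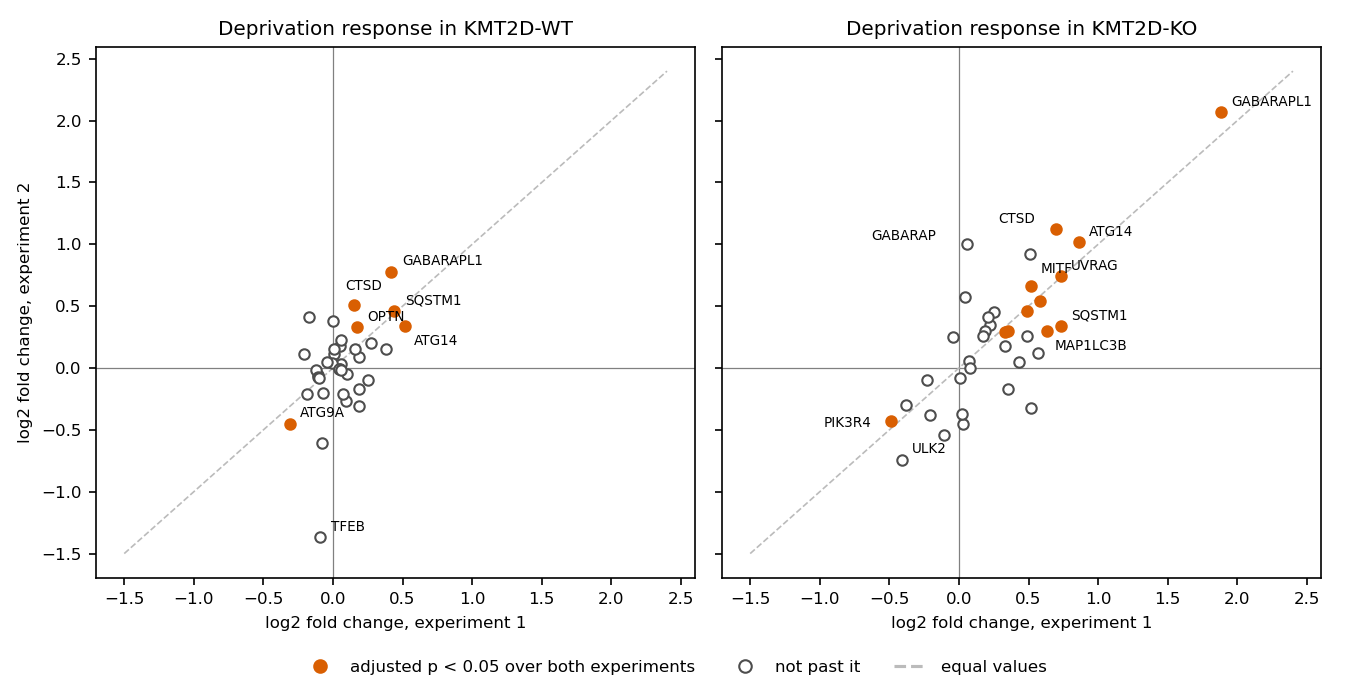
Each point is 1 of the 37 genes, with its log2 fold change on glucose deprivation in experiment 1 on the horizontal and in experiment 2 on the vertical axis, in KMT2D-WT cells on the left and KMT2D-KO cells on the right, and filled points passed the test over both experiments. Every filled point has the same sign in both experiments, which is likely beforehand for genes called over both. GABARAPL1 in KO cells lies at 1.88 and 2.07, and TFEB in WT cells lies far from the dashed line of equal values, at -0.09 and -1.37.

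The KO calls did not all depend equally on the design. With the libraries paired by label within experiment as a block, 9 of the 12 calls in KO cells passed (PIK3R4, UVRAG, ATG14, MAP1LC3B, GABARAPL1, NBR1, OPTN, LAMP1 and CTSD), and the same 9 passed with the close pair summed. ATG13, SQSTM1 and CALCOCO2 were lost in both, with adjusted p of 0.0607 to 0.0747 under the block. The -Glc library labelled KO1 of experiment 2 lay nearer to line KO2, so its pair in this block may join different lines. ATG13 was also lost in 7 of the 8 fits that left out 1 library, all but the one without the -Glc KO1 library of experiment 1, with values of 0.25 to 0.33 and adjusted p of 0.0555 to 0.109. Scaling to the total count in place of TMM shifted the median of all genes to -0.20 and that of the 37 genes to 0.07, and then 6 rose (GABARAPL1, ATG14, CTSD, UVRAG, LAMP1 and OPTN) and 3 fell (PIK3R4, ATG2A and ATG9A). Upper-quartile scaling gave 8 that rose and 3 that fell. The summed level of the squamous markers also moved with deprivation in KO cells, from between 936 and 2015 CPM to between 1972 and 3463 CPM, against 1193 to 1916 CPM and 1497 to 1874 CPM in WT cells. Its part in the response was not tested.

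The difference between the genotypes' responses was tested directly over all 14 libraries. For 4 of the 37 genes (NBR1, CTSD, UVRAG and CALCOCO2) the response in KO cells was above that in WT cells, and for PIK3R4 it was below, or 10.8% and 2.70%, against 4.73% and 6.54% of all 18678 genes tested. The median difference was 0.26, against -0.00 for all genes, and 30 of 37 differences were positive, against 49.8% of all genes. CALCOCO2 had a difference of 0.39 (SE 0.11, adjusted p = 0.0446), which stayed past the threshold in only 3 of the 14 fits that left out 1 library, those without the -Glc KO1 or KO2 library of experiment 1 or the experiment 2 +Glc library labelled KO1. Its adjusted p in the other 11 fits was 0.0584 to 0.136, at values of 0.34 to 0.43. With the close pairs summed 0 of the 37 genes passed, with 9 at an unadjusted p under 0.05, while DESeq2 on all libraries called 13. Scaling to the total count gave 2 higher and 1 lower, with the median of all genes at -0.23 and that of the 37 genes at 0.03.

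Promoter sequences were read for the CACGTG motif, the core of the sequence that MiT/TFE factors recognise. RefSeq promoters of GRCh38.p14, each from 250 bases before to 50 bases after the start site, were at hand for 33 of the 37 genes. The motif is its own reverse complement, so both strands give the same matches, and no other motif was searched. It occurred in 5 of 33 genes, or 15.2%, against 2396 of 27305 genes with a promoter, or 8.77%. The larger set was not limited to genes that passed the count filter here, as nearly all of the 37 did. These 2 shares are therefore not like for like. The 5 genes with the motif were CTSD, LAMP1 and ATG14, which rose in deprived KO cells, and MCOLN1 and ATG3, which did not pass that test. One window of 30 bases upstream of the start site is shown for each to let the flanks be compared, written 5′ to 3′ on the strand of the gene with the motif in capitals.
CTSD (chr11:1763957-1763986, minus strand): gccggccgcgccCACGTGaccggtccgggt
LAMP1 (chr13:113297199-113297228, plus strand): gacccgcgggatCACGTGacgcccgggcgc
ATG14 (chr14:55411834-55411863, minus strand): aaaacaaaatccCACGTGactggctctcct
MCOLN1 (chr19:7522571-7522600, plus strand): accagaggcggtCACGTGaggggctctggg
ATG3 (chr3:112561963-112561992, minus strand): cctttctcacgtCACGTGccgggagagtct
The motif starts at position -47 from the start site in CTSD, -28 in LAMP1, -21 in ATG14, -41 in MCOLN1 and -18 in ATG3. Over the whole promoter sequence LAMP1 held 6 copies, ATG3 and MCOLN1 held 2 each, and CTSD and ATG14 held 1 each. GABARAPL1 and SQSTM1 held none there, and a match or its absence is a description of the sequence only.

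With glucose present, KO cells differed from WT cells in both directions among the 37 genes. In KO cells 4 genes were higher (GABARAPL1, LAMP2, GABARAPL2 and RB1CC1) and 12 were lower (MITF, WIPI1, ATG2A, ATG10, PIK3C3, MCOLN1, ATG7, ATG14, ULK1, CALCOCO2, NBR1 and OPTN), or 10.8% and 32.4%, against 13.0% and 11.7% of all 20423 genes tested. The median of the 37 genes was -0.05, against 0.02 for all genes. The genes that were lower included 3 of 4 receptors and 2 of 4 lipid transfer and PI3P-binding genes, and the ATG8 proteins had 2 genes higher and none lower. Without the WT library of experiment 1, 14 of the 16 calls were lost and MITF and ATG2A stayed. It is the only WT library of that experiment with glucose, so the fit without it compares the genotypes in experiment 2 only. Without 1 or the other experiment 2 WT library 10 and 5 were lost, MITF and ATG2A not among them. MITF had a log2 fold change of -0.92 (SE 0.15, adjusted p = 0.00297), with -0.95 in experiment 1 and -0.91 in experiment 2.

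WIPI1 binds PI3P on the phagophore. Its level with glucose was 11.0, 13.1 and 11.7 CPM in WT cells and 6.14, 4.79, 6.69 and 7.85 CPM in KO cells, with no overlap. Without glucose it was 10.4, 7.82 and 8.39 CPM in WT and 9.09, 6.62, 6.31 and 5.32 CPM in KO cells, with overlap. Its log2 fold change of KO against WT cells was -0.86 (SE 0.15, adjusted p = 0.00310) with glucose and -0.47 (SE 0.16, adjusted p = 0.0481) without it. The first was -0.78 (adjusted p = 0.0518) without the WT library of experiment 1, and the second was lost without any of the 3 WT libraries or either experiment 2 KO library, with values of -0.54 to -0.38 and adjusted p of 0.0984 to 0.171. Of its exonic bases, 28.1% also lie in other genes, mainly ARSG on the opposite strand.

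ATG2A transfers lipids from the endoplasmic reticulum to the phagophore. Its level with glucose was 112, 87.9 and 79.8 CPM in WT cells and 61.4, 56.1, 57.2 and 47.7 CPM in KO cells. Without glucose it was 104, 81.2 and 79.1 CPM in WT and 36.4, 54.1, 45.8 and 39.3 CPM in KO cells. Every KO library was below every WT library in both conditions. The log2 fold change was -0.77 (SE 0.10, adjusted p = 0.000931) with glucose and -1.05 (SE 0.13, adjusted p = 0.000771) without it, and it passed the test in each fit that left out 1 library. With the close pairs summed the value without glucose was -1.09 (adjusted p = 0.0304).

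GABARAPL1 was higher in KO cells by a log2 fold change of 0.80 (SE 0.21, adjusted p = 0.0241) with glucose, with 0.47 in experiment 1 and 1.01 in experiment 2. The call was lost without any 1 of the 3 WT libraries, with values of 0.70 to 0.99 and adjusted p of 0.0690 to 0.115. By line the value was 0.42 in KO1 and 1.10 in KO2. LAMP2, a lysosomal membrane protein needed for vesicle fusion and chaperone-mediated autophagy, had the other value above 0.5 among the genes higher with glucose, at 0.72 (SE 0.18), with 0.98 in KO1 and 0.40 in KO2. It too was lost without any 1 of the 3 WT libraries, with values of 0.68 to 0.75 and adjusted p of 0.0664 to 0.139. RB1CC1, the scaffold FIP200 of the kinase complex, was counted at 34.6 to 48.5 CPM in experiment 1 and 96.0 to 131 CPM in experiment 2 with glucose, and its KO effect of 0.39 is taken within experiments.

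After glucose deprivation more of the 37 genes, and a larger share of all genes, differed between the genotypes. In KO cells 17 genes were higher and 8 lower, or 45.9% and 21.6%, against 25.9% and 24.9% of all 16782 genes tested. The median was 0.23, against 0.00 for all genes. The genes that were higher included all 3 cathepsins, 3 of 4 ATG8 proteins (GABARAPL1, MAP1LC3B and GABARAPL2), 3 of 5 kinase complex subunits (ATG101, RB1CC1 and ATG13), LAMP1, LAMP2, UVRAG and TFE3. The genes that were lower were ULK2, ATG2A, ATG10, ATG7, WIPI1, PIK3C3, PIK3R4 and MCOLN1. With the close pairs summed, 1 gene was higher (ATG101, 0.73) and 3 were lower (ULK2, ATG2A and ATG10). Leaving out 1 library lost between 0 and 11 of the 25 calls. The most were lost without the WT library of experiment 1, a fit that compares the genotypes in experiment 2 only. Those lost there included GABARAPL2, SQSTM1, LAMP2 (0.67, adjusted p = 0.0963), CTSB and CTSL. Without each WT and KO library of experiment 2, 10, 9, 7 and 7 calls were lost. TFE3 was lost without either WT library of experiment 2, while GABARAPL1, ULK2, ATG2A, ATG10, UVRAG, LAMP1, MAP1LC3B and CTSD were called in every such fit. Scaling to the total count gave 6 higher and 13 lower, with the median of all genes at -0.25 and that of the 37 genes at -0.02.

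**Figure D4:**
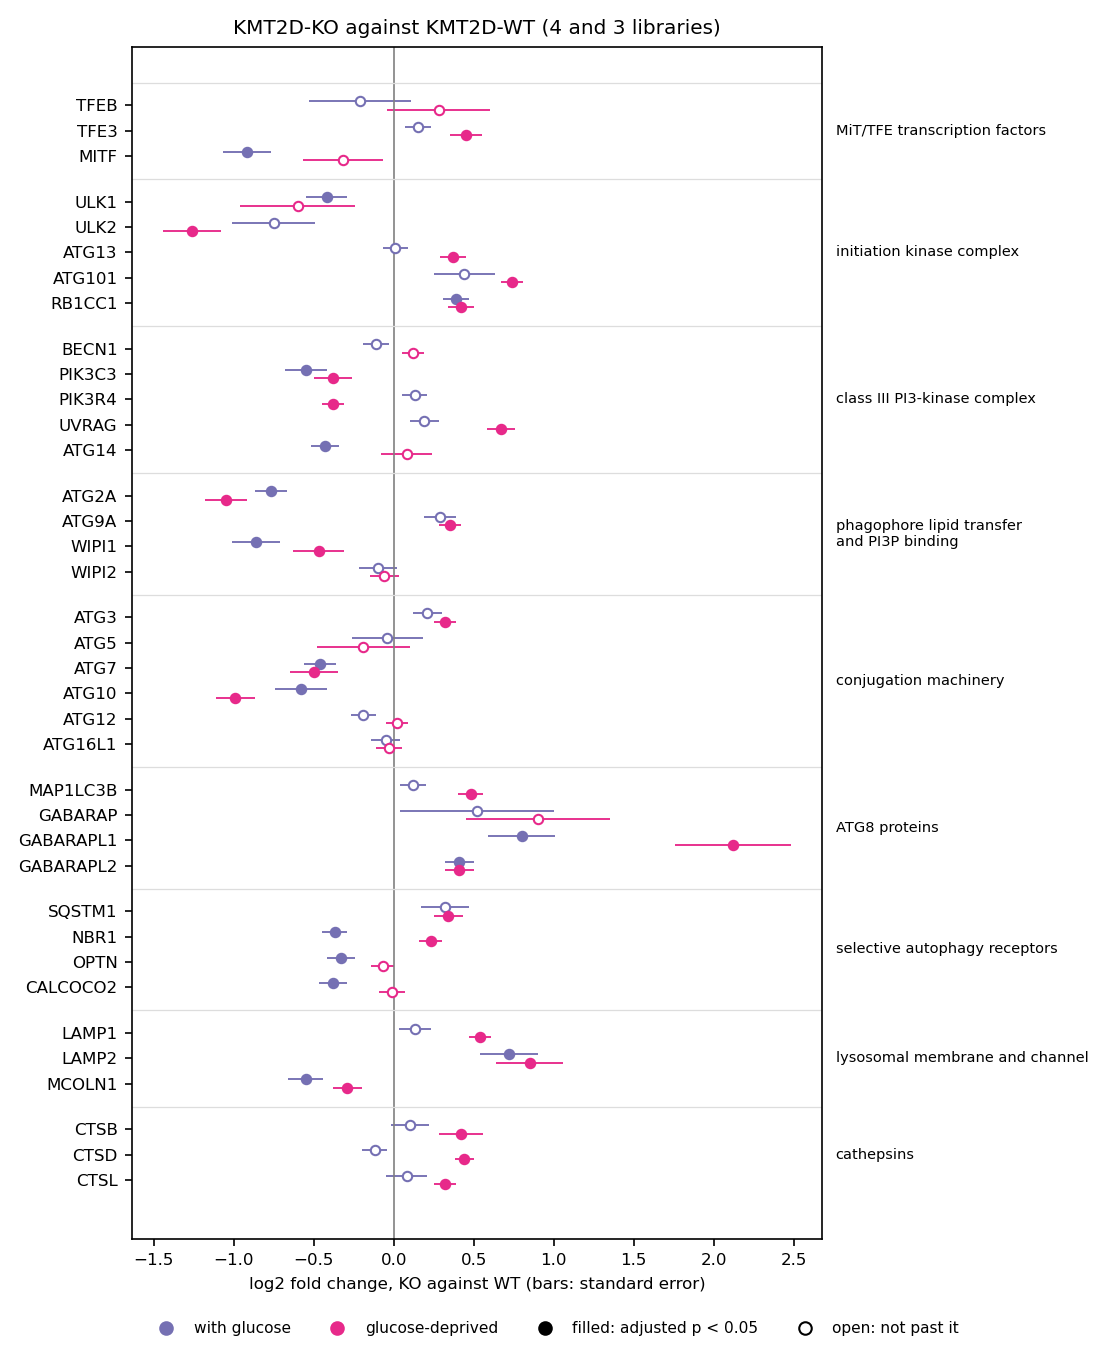
The horizontal axis gives the log2 fold change of KMT2D-KO against KMT2D-WT libraries with its standard error for each of the 37 genes, grouped by role, in purple with glucose and pink without it, with filled points for adjusted p under 0.05. GABARAPL1 moves from 0.80 to 2.12 and the cathepsins lie right of 0 without glucose, while ATG2A, ATG10 and ULK2 lie left of 0 in both conditions.

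Of the 37 genes GABARAPL1 had the highest log2 fold change without glucose, 2.12 (SE 0.36, adjusted p = 0.00271), at 1.93 in experiment 1 and 2.30 in experiment 2. The lines differed, with 27.4 CPM in WT, 50.3 CPM in KO1 and 159 CPM in KO2 in experiment 1 without glucose. Both experiment 2 KO libraries, at 119 and 120 CPM, lay nearer to KO2 at the genes that separate the lines. The value of GABARAPL1 therefore rests more on KO2 than on KO1. With the close pairs summed the GABARAPL1 value was 2.08, with an adjusted p of 0.0554. ULK2, a paralog of ULK1, was at 16.7, 23.9 and 22.1 CPM in WT and 14.3, 7.31, 17.1 and 8.96 CPM in KO cells with glucose. Without glucose it was at 19.0, 18.4 and 18.6 CPM in WT and 10.0, 6.11, 7.69 and 7.91 CPM in KO cells. With glucose the KO1 libraries were nearer to WT than the KO2 libraries, and without glucose all KO libraries were below all WT libraries. On deprivation in experiment 1, ULK2 went from 14.3 to 10.0 CPM in KO1 and from 7.31 to 6.11 CPM in KO2. The larger step from 17.1 to 7.69 CPM in experiment 2 involves the -Glc library labelled KO1, whose line is in doubt. By edgeR the log2 fold change was -1.26 (SE 0.18, adjusted p = 0.00134) without glucose and -0.75 (SE 0.26, adjusted p = 0.0685) with it.

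ATG10, the E2-like enzyme that joins ATG12 to ATG5, was counted at low levels. It was at 6.66, 7.15 and 7.30 CPM in WT and 4.92, 5.37, 4.70 and 4.13 CPM in KO cells with glucose. Without glucose it was at 8.66, 8.12 and 7.86 CPM in WT and 4.14, 4.65, 4.37 and 3.85 CPM in KO cells. All KO libraries were below all WT libraries in both conditions, with log2 fold changes of -0.58 (SE 0.16, adjusted p = 0.0304) and -0.99 (SE 0.12, adjusted p = 0.000676). The value with glucose was not called without any of 5 libraries (each WT library and both experiment 2 KO libraries), at -0.72 to -0.49 with adjusted p of 0.0557 to 0.110. Of the other conjugation genes, the E1-like enzyme ATG7 was lower in both conditions (-0.46 and -0.50), and the E2-like enzyme ATG3 was higher without glucose (0.32). ATG7 was not called with glucose without the WT library of experiment 1 or 1 of those of experiment 2 (adjusted p = 0.114 and 0.0584 by edgeR), nor without glucose when any 1 WT or experiment 2 KO library was left out, at -0.62 to -0.45 with adjusted p of 0.0638 to 0.111. ATG3 was not called when any 1 of the 3 WT libraries was left out, with adjusted p of 0.0511 to 0.0677, and ATG5, ATG12 and ATG16L1 did not pass in either, at -0.19 to 0.02.

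NBR1 was lower in KO cells with glucose (-0.37, adjusted p = 0.0113) and higher without it (0.23, adjusted p = 0.0367), the single gene of the 37 called in opposite directions in the 2 conditions. The second value was lost without any 1 of 5 libraries (each WT library and both experiment 2 KO libraries), at 0.20 to 0.26 with adjusted p of 0.0805 to 0.177, and was -0.02 under scaling to the total count. The first was lost without the WT library of experiment 1 or 1 of the experiment 2 WT libraries, at -0.42 and -0.33. Groups overlapped between the genotypes for 24 of the 37 genes in each condition. With glucose the KO libraries were all higher for 3 genes and all lower for 10, and without it all higher for 10 and all lower for 3. Over all genes tested these shares were 9.66% and 10.4% with glucose and 16.3% and 18.9% without it.

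The rest of the pathway was read from 6 lists of genes outside the 37, chosen by function. In deprived KO cells 7 of 16 subunits of the vacuolar ATPase, the proton pump that acidifies the lysosome, rose and 1 fell. ATP6V1F rose by 0.67 and ATP6V1G1 by 0.68, and ATP6V0A1 fell by 0.80 on the log2 scale. Of 39 other lysosomal hydrolases 11 rose and 2 fell, with CTSH at 0.95, HEXA at 0.91 and CTSK at -2.37. Among other selective autophagy receptors 6 of 17 rose and 1 fell, with the mitophagy receptors BNIP3L at 0.62 and FKBP8 at 0.54 and the aggregate adaptor WDFY3 at -0.56. Other core autophagy genes gave 5 of 20 higher and 1 lower, with MAP1LC3B2 at 0.94, ZFYVE1 at 0.66 and ATG16L2 at -0.97. MAP1LC3B2 is a near copy of MAP1LC3B, counted at 6.56 CPM or less, and reads could be split between them. These shares stand against the 14% of all genes that rose and 16.0% that fell.

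Of 26 other lysosomal membrane and trafficking genes 3 rose and 4 fell, or 11.5% and 15.4%, against 14% and 16.0% of all genes, with a median of -0.20 against 0.00. NPC2, the cholesterol carrier of the lysosome lumen, was at 0.84 and GNPTG, a subunit of the enzyme that tags hydrolases for the lysosome, at 0.73, while the sialic acid exporter SLC17A5 was at -1.10. Of 21 regulators of TFEB 4 rose and 2 fell, or 19.0% and 9.52%. ZKSCAN3, a repressor of autophagy and lysosome genes, fell from 7.99, 8.52, 7.31 and 9.04 CPM to 2.88, 1.96, 2.37 and 2.51 CPM in KO cells, a log2 fold change of -1.78 (SE 0.20, adjusted p = 0.00164). In WT cells it was at 10.7, 7.27 and 7.50 CPM with glucose and at 9.07, 6.90 and 7.37 CPM without it, so that its levels overlapped there. The difference of its responses was -1.64 (SE 0.24, adjusted p = 0.00199), and differences were also called for CTSK (-1.72), CTSH (0.86), NPC2 (0.54) and MCOLN3 (-0.76), singled out after their values were seen. FLCN, which acts with the Rag GTPases at the lysosome, rose by 0.96 in KO and 0.73 in WT cells, and RRAGC, a Rag GTPase, rose by 0.99 and 0.71.

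In deprived WT cells the same lists gave 6 of 16 ATPase subunits higher and 0 lower, against 7.15% of all genes that rose and 7.58% that fell, led by ATP6V1F at 0.54, ATP6V1G1 at 0.52 and ATP6V1C1 at 0.50. Other hydrolases gave 2 higher and 1 lower of 40, with 5.00% higher being below the share of all genes, and with SGSH at 0.26, CTSA at 0.21 and ARSB at -0.42. Other core genes gave 3 of 20 higher, with VMP1 at 0.45, ZFYVE1 at 0.39 and TMEM41B at 0.36, and other receptors 2 of 17 (11.8%), with CCPG1 at 0.74 and PHB2 at 0.34. Among membrane and trafficking genes 4 of 26 rose and 1 fell, with MCOLN3 at 0.40, GNPTG at 0.37 and MCOLN2 at -1.21. Of 20 regulators 5 rose and 1 fell, with FNIP1 at 0.74 and LAMTOR3 at 0.73. These calls rest on the fit whose 6 calls among the 37 genes were lost without an experiment 2 library.

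**Figure D5:**
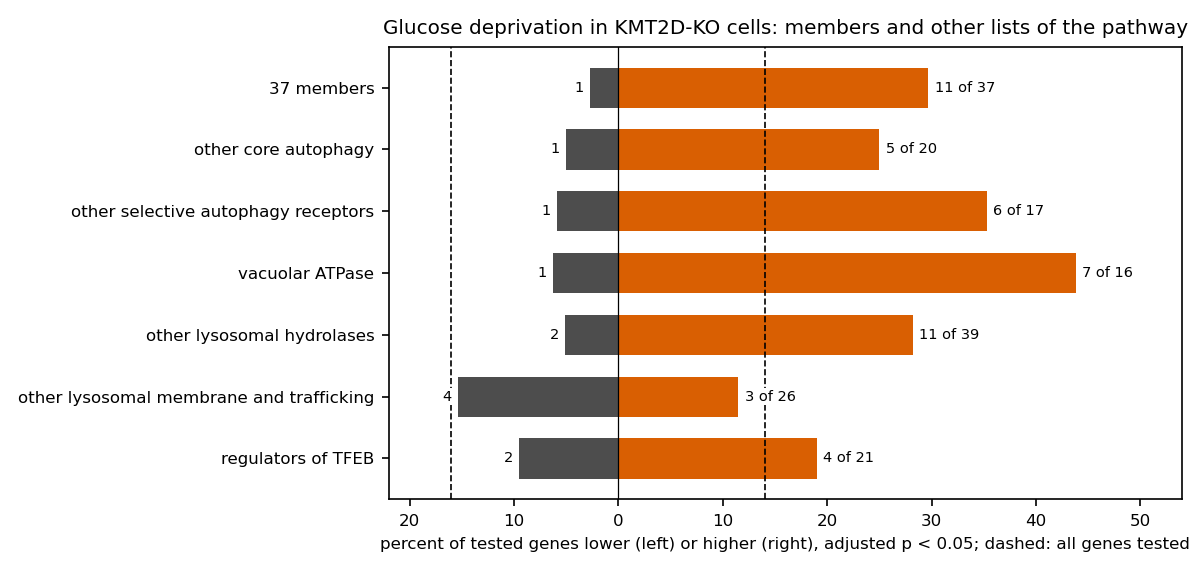
Bars give the percent of tested genes of each list that were lower (grey, left) or higher (orange, right) in glucose-deprived than in glucose-fed KMT2D-KO cells at adjusted p under 0.05, with the counts beside them, and dashed lines give 16.0% and 14%, the shares over all genes. The 37 genes reach 11 of 37 higher and the vacuolar ATPase 7 of 16, while other lysosomal membrane and trafficking genes stay left of the dashed line at 3 of 26.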

How the data were processed

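RNA-seq counts of 14 libraries of SCC23 cells were used. The authors mapped reads to GRCh38 with HISAT2 and counted them per gene name with featureCounts 2.0.3 on the Ensembl 102 annotation without strand, and the deposited values are raw counts. Per the file headers primary alignments were counted, and in 4 libraries both mates of a pair. Groups came from the labels.

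After filterByExpr (minimum count 10, by group), edgeR 4.0.16 (R 4.3.3) gave TMM factors, quasi-likelihood tests and Benjamini-Hochberg adjusted p, called under 0.05, for 5 comparisons: deprivation in WT, deprivation in KO, KO against WT with and without glucose, all with experiment as covariate, and the difference of the responses over 14 libraries with experiment within glucose condition. The study's methods name DESeq2 and no covariate, which were alternatives (DESeq2 1.42.0). Both tools were tested on simulated data drawn from edgeR's own fitted means and dispersions, with 200 genes changed, so the comparison is not neutral. Every simulated library was drawn independently, without the close pairs of the data, so shares of false calls need not carry over to these libraries. DESeq2 made a larger share of false calls than edgeR in all 5 comparisons, 18.6% to 27.3% against 2.61% to 7.74%. It also found a larger share of the genes changed 2-fold in all 5, such as 57% against 37.6% for deprivation in KO. For 4-fold changes neither tool led in all 5. A block of pairs was fitted too. Libraries sharing line, experiment and label number deviated together from their group means (correlation over 18678 genes of 0.23 to 0.44 in 7 of 7 pairs). Group means were taken over both experiments, so a shared experiment alone can give such a correlation. For the experiment 2 +Glc libraries labelled KO2 and WT2, the best matches were the -Glc libraries labelled KO1 and WT1 of that experiment.

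The 37 genes and all lists were chosen with earlier results of these data known. Genes named with every library's value were TFEB, TFE3, MITF, SQSTM1, MAP1LC3B, GABARAPL1, CTSD and LAMP1, and in each comparison up to 4 called genes with the highest absolute log2 fold change and 1 sign in both experiments. From each other list up to 3 called genes per deprivation comparison were named. Gene positions and exon overlaps came from the count tables, and promoters from RefSeq (GRCh38.p14).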

Additional observations from a re-analysis of the deposited data

Results flagged for a closer look

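Of 74 sets of 4 KO libraries, 1 for each of the 37 genes in each glucose condition, 4 held 1 library far from the other 3 by Dixon's test, and chance gives about 1 in 20. In all 4 the condition was -Glc and the far library was from experiment 1. In KO1, TFEB was at 2.32 CPM, against 1.07 to 1.14 CPM in the other 3, and ATG7 was at 46.1 CPM, against 29.8 to 32.1 CPM. In KO2, OPTN was at 90.3 CPM, against 98.2 to 99.5 CPM, and LAMP1 was at 645 CPM, against 532 to 538 CPM. Since the 2 experiment 2 -Glc libraries are nearly alike, these sets hold fewer than 4 independent values. Neither of those 2 can then lie far from all the others, so a flagged -Glc library could only come from experiment 1. The part of this likeness in the size of the gaps was not tested.

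For 5 genes the deprivation response differed between KO and WT cells by edgeR's test of the difference: NBR1 by 0.62, CTSD by 0.59, UVRAG by 0.51, CALCOCO2 by 0.39 and PIK3R4 by -0.48 on the log2 scale. The signs were the same in both experiments for all 5, which is likely beforehand for genes called over both experiments. NBR1 and CTSD were called in every fit that left out 1 library. With the close pairs summed these genes did not pass.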

How the results depend on the processing

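The number of the 37 genes called was 6 for deprivation in WT, 12 in KO, 16 for KO against WT with glucose, 25 without it and 5 for the difference of responses. DESeq2 called 11, 19 and 13 for deprivation in WT, in KO and the difference. Without the experiment covariate the 5 counts were 0, 3, 1, 9 and 0. The block of pairs, fitted for deprivation only, gave 0 in WT and changed no other count by over 1.5 times. Summed close pairs gave 0 in WT, 4 for KO against WT without glucose and 0 for the difference. A single fit of 14 libraries gave 2, 21 and 3 for deprivation in WT, in KO and the difference, gene length offsets gave 20 in KO and 9 for the difference, and median-ratio and total-count scaling gave 8 and 3 for the difference. Experiment 1 alone, with 1 WT library per condition and the spread taken from the fit of 14 libraries, so that the lone library is assumed to vary like the others, gave 0 in WT (0 at an unadjusted p under 0.05), 4 with glucose, 8 without it and 0 for the difference. Experiment 2 alone gave 7 with glucose and 0 for the difference. Single lines, chosen after seeing the data, gave 0 in KO for each, 16 without glucose for KO1 and 14 for the difference for KO2. Leaving out 1 library gave 0 to 13 in WT, 9 to 17 in KO, 2 to 17 with glucose, 14 to 31 without it and 2 to 13 for the difference. Where a count was 0, the number at an unadjusted p under 0.05 was between 0 and 16. Why counts moved was not tested.

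Of 1375 values of the 64 single-gene calls under alternatives, 973 stayed past the threshold with the same sign, 401 kept the sign only, and 1 reversed: NBR1 without glucose, at -0.02 under total-count scaling.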
